A study of Mus musculus with 10 samples.

Results

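All lungs of mice injected with B16F10 cells were compared with the lungs of uninjected mice, with 8 arrays on the injected side and 2 on the other, which is every one of the 10 arrays of the series. The members were taken by the label that gives injection, whatever the later treatment, and no measured value entered the choice. Every group consisted of male C57BL/6J mice, of 6 weeks by the growth protocol, where the treatment protocol writes years. The labels name 40 mice in 5 groups of 8, kept on their treatment for 20 days, and 2 arrays of lung RNA represent each group. The uninjected mice were treated with water. Of the 4 injected groups, the first received water, the second 70 mg/kg per day of DTIC (dacarbazine, a DNA-alkylating chemotherapy given in melanoma), the third the compound SQ-diEG at 5 mg/kg per day and the fourth SQ-diEG at 25 mg/kg per day. No group was injected with anything in place of B16F10 cells, so the comparison holds cells and injection together, and 3 of the 4 injected groups also carry a drug that the uninjected mice never received. The labels give neither the site of injection nor the tumour load of a lung, and leave unsaid whether each array held a single mouse or a pool, so the spread between these arrays, which p-values measure, may be technical. Pieces of whole lung were measured, so more cells of a type and more RNA per cell cannot be told apart.

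B16F10 is a mouse melanoma line, derived from a C57BL/6 tumour by repeated passage through the lung, and it forms pigmented colonies there. Pigment cells make melanin in melanosomes: Pmel forms the fibrils on which melanin is laid down, and Tyr, Tyrp1 and Dct are the enzymes of its synthesis. The lung itself brings type II cells with surfactant genes such as Sftpc, thin type I cells, club and ciliated airway cells, a dense capillary endothelium and resident macrophages. Tumour colonies in lung are known to draw neutrophils, monocytes and lymphocytes and to carry dividing cells, which decided the groups of genes described here.

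Each array gave log2 values for 28846 probe sets, of which 19572 were non-control probe sets with 1 gene symbol, for 19505 genes. The yardstick for a signal was the 5222 probe sets that the array names as negative controls. The median of the genes ran from 7.33 to 7.41 on the 10 arrays and that of the negative controls from 7.57 to 7.74, so the genes' median lay below that of the negative controls on every array. Some negative controls were bright: 22 and 26 of them exceeded 16 on the uninjected arrays and 27 to 38 on the injected ones. The negative controls' 95th percentile on an array, here called the negative-control limit, ran from 10.67 to 11.05. It was 10.67 and 10.70 on the uninjected arrays and 10.73 to 11.05 on the injected ones, so the sides did not overlap. Per array, 56 to 82 genes exceeded the negative-control limit. Of the 19011 genes tested, 18498 (97.3%) were above that limit on 0 arrays and none was above it on all 10. The labels name a 3' amplification kit and 3' arrays, while the probe sets are named as on whole-transcript arrays, and whether the labelled RNA suited the array is not settled by the sources used here, which bears on every value. Defining markers of the labelled tissue were not separated from the negative controls. All 14 lung markers examined, among them the surfactant genes Sftpc, Sftpa1, Sftpb and Sftpd and the endothelial genes Pecam1 and Cdh5, were under the limit on every array, with means of 7.03 to 8.45. The 7 melanoma markers had means of 6.87 to 8.18 and the 6 markers of liver, pancreas, kidney, heart and brain means of 6.95 to 7.90, also under it on every array. The 4 poly-A controls, RNAs spiked in before labelling, averaged 4.55 to 4.78.

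The hybridization controls bioB, bioC, bioD and cre were brighter on the arrays of injected mice. They are labelled transcripts of bacterial and phage genes added to the hybridization mix, and carry no RNA of the mouse. Their mean was 8.47 and 8.68 on the uninjected arrays. On the injected arrays it was 10.28 and 10.99 with water, 9.22 and 10.28 with DTIC, 9.10 and 10.15 with SQ-diEG at 5 mg/kg, and 10.27 and 10.92 with SQ-diEG at 25 mg/kg. All 8 injected arrays were above both uninjected ones. The injected mean of 10.15 ± 0.69 (SD, n = 8) exceeded the uninjected mean of 8.57 ± 0.15 (SD, n = 2) by 1.58 on the log2 scale (exact two-sided permutation test, p = 0.0444, the smallest that 8 against 2 arrays can give, and 0.0667 after Benjamini-Hochberg adjustment over 6 such values). The highest of the controls, cre, was 12.62 ± 0.61 (SD, n = 8) against 10.77 ± 0.35 (SD, n = 2), a difference of 1.85. The differences of bioB and bioD were 1.11 and 1.97. For bioC the sides overlapped and the difference was 1.40 (exact two-sided permutation test, p = 0.133). The spread of the genes on an array moved the same way, with an SD over genes of 1.06 and 1.08 on the uninjected arrays and 1.08 to 1.14 on the injected ones. With no uninjected array as bright as an injected one, brightness of the hybridization and injection cannot be told apart in any difference below.

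**Figure D1:**
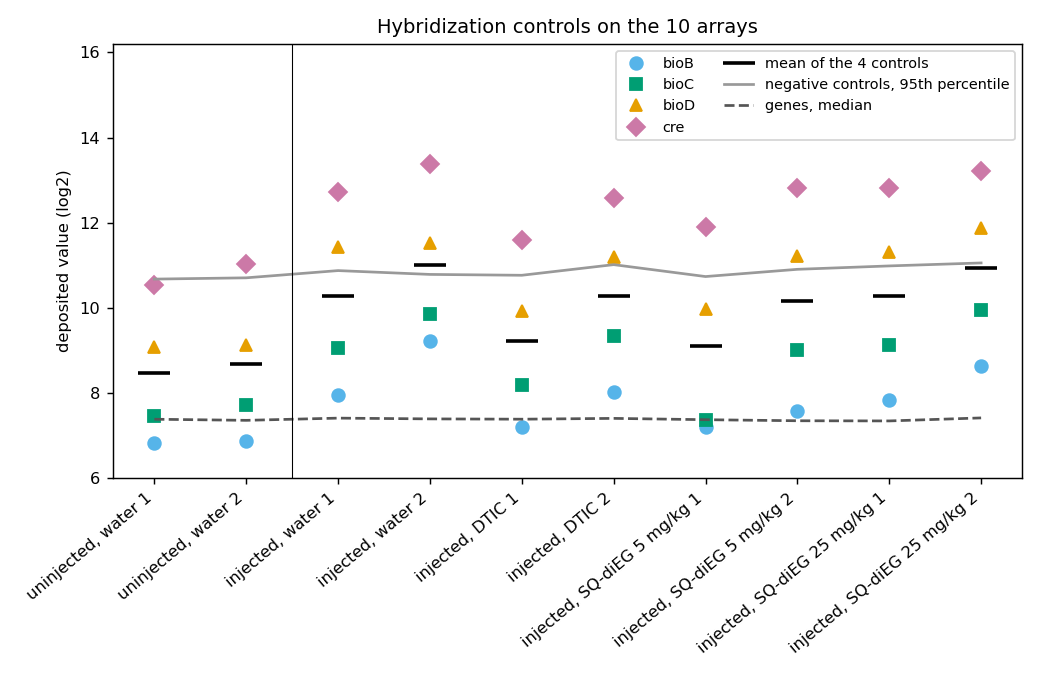
Deposited log2 values of the hybridization controls bioB, bioC, bioD and cre on each of the 10 arrays, with their mean (black dash), the 95th percentile of negative controls (grey line) and the median of the genes (dashed line). The 2 uninjected arrays, left of the vertical line, have control means of 8.47 and 8.68, and the 8 injected arrays lie between 9.10 and 10.99, while the genes' median stays between 7.33 and 7.41.

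No gene passed the test between injected and uninjected lungs. With limma over all 19011 genes, 0 (0%) had a Benjamini-Hochberg adjusted p under 0.05, and the smallest adjusted p was 0.538. At an unadjusted p under 0.05 there were 1031 genes, or 5.42%: 444 (2.34%) with a higher mean and 587 (3.09%) with a lower mean in injected lungs. The values of the 2 sides did not overlap for 913 genes, or 4.8%, of which 485 (2.55%) were higher and 428 (2.25%) lower in injected lungs. The same held for 280 of the 5222 negative-control probe sets, or 5.36%, of which 166 (3.18%) were higher and 114 (2.18%) lower. The mean was higher in injected lungs for 53.1% of the genes and for 53.7% of the negative-control probe sets. A log2 difference over 1 in either direction was found for 21.2% of the genes and 41.9% of the negative-control probe sets. One over 2 in either direction was found for 1.41% of the genes and for 10.8% of the negative-control probe sets. The SD of the differences was 0.80 over genes and 1.26 over negative-control probe sets, so the negative controls differed between the sides more widely than the genes did. A typical gene varied by an SD of 0.97 between arrays of a group.

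No gene passed a test of differences within the injected side either. Among its 4 groups, limma's F test called 0 genes (0%) at an adjusted p under 0.05, with 926 genes (4.87%) at an unadjusted p under 0.05 and a smallest adjusted p of 0.828. Set against the same 2 uninjected arrays, the groups gave 1092 genes at an unadjusted p under 0.05 with water, 897 with DTIC, 973 with SQ-diEG at 5 mg/kg and 1199 with SQ-diEG at 25 mg/kg, and 0 at an adjusted p under 0.05 each. Across genes, the values of 2 injected arrays correlated at 0.16 to 0.24 (28 pairs), those of an injected and an uninjected array at 0.11 to 0.22 (16 pairs) and those of the 2 uninjected arrays at 0.18. These describe arrays that share probe sets and a common scaling, and genes are not independent replicates. Over the negative-control probe sets the corresponding mean correlations were 0.36, 0.31 and 0.33.

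The brightest genes had higher values in injected lungs, and so did the brightest negative controls. Of the genes with a mean over 10 across the 10 arrays, 32 of 32 had a higher mean on the injected side, by a median of 1.55. That mean holds 8 injected and 2 uninjected arrays, so choosing bright genes or negative controls by it favours those higher on the injected side. In the classes below, the median difference was 0.70 for the 181 genes from 9 to 10, 0.16 for the 3001 genes from 8 to 9 and 0.05 for the 12083 genes from 7 to 8. Negative-control probe sets followed the same course: 99 of 122 with a mean over 10 were higher, by a median of 1.61, and the 249 from 9 to 10 by a median of 0.55. The 2 sides did not overlap for 3 of the 32 genes, all higher, and for 24 of the 122 negative controls, 23 higher and 1 lower. The shares at all levels were 4.8% of genes and 5.36% of negative controls. By array, the median of the 32 genes was 8.46 and 10.13 in uninjected lungs, 11.37 and 11.40 with water, 10.15 and 11.40 with DTIC, 10.02 and 10.67 with SQ-diEG at 5 mg/kg, and 11.59 and 11.94 with SQ-diEG at 25 mg/kg. The first uninjected array stood lowest and the second lay within the injected range. Without the first uninjected array 32 of 42 such genes and 88 of 133 such negative controls were higher, by medians of 0.65 and 0.69, and without the second the medians were 2.28 and 1.97. After quantile normalization 31 of 32 genes and 78 of 125 negative controls were higher, by medians of 1.32 and 0.64. The 4 hybridization controls differed by 1.11 to 1.97 the same way, bioD and cre with injected means over 10 and bioB and bioC below it, and the part of each in the other was not tested.

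**Figure D2:**
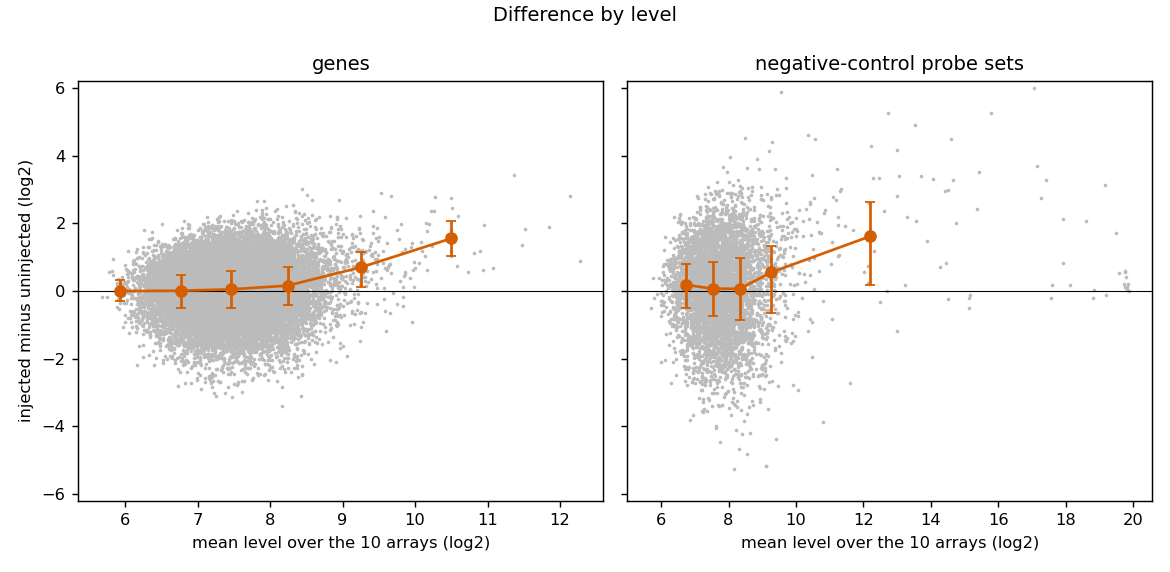
Mean of the injected arrays minus mean of the uninjected arrays (log2) against the mean over all 10 arrays (log2), for 19505 genes on the left and 5222 negative-control probe sets on the right. Grey points are single genes or probe sets, orange circles the median of each level class at its median level, with bars from the 25th to the 75th percentile. Both panels stay near 0 below a level of 9 and turn upward above it, to 1.55 for genes and 1.61 for negative controls over 10.

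Only 10 genes had a mean above 10.85, the average over arrays of the negative-control limit, and all 10 had a higher mean in injected lungs, by a median of 1.59. Since 8 of the 10 arrays in that mean are injected ones, the choice itself favours genes that are higher there, and Gm20854, Ipw and Btbd35f18 were above the limit on 0 uninjected arrays. None was above the limit on all 10 arrays, and of 81 negative-control probe sets above the same mean 68 were higher, by a median of 1.68. They are described with the negative controls as the measure of size.
Gm20854, a protein-coding gene of the Y chromosome, stood apart between the sides on both of its probe sets. It has a clone-type name that the naming rule leaves out, and was singled out after its values were seen. Its brighter probe set was at 9.82 and 9.96 in uninjected lungs, 13.83 and 12.23 with water, 12.04 and 12.59 with DTIC, 11.56 and 12.14 with SQ-diEG at 5 mg/kg, and 14.44 and 12.81 with SQ-diEG at 25 mg/kg. All 8 injected arrays were above the negative-control limit and both uninjected arrays below it. The difference was 2.81 (SE 0.75, limma adjusted p = 0.538), and ran from 2.44 to 3.30 over all settings tried. The dimmer probe set was at 7.61 and 8.33 against 8.97 to 12.63. In comparison, 2.78% of the negative controls differed at least as far as the brighter one, and the hybridization controls by 1.58 in the same direction.
Ipw, a non-coding RNA of the imprinted Prader-Willi region, was read at 7.78 and 9.51 in uninjected lungs and at 9.12 to 13.75, with a median of 12.49, in injected lungs. The sides overlapped. The difference was 3.41 (SE 0.83, limma adjusted p = 0.538), and 0.977% of the negative-control probe sets differed at least as far. It was 0.27 with the hybridization controls as a covariate. Cort, the gene of the neuropeptide cortistatin, was at 9.39 and 10.72 against 10.25 to 12.80 with a median of 12.17, a difference of 1.83 that 14.2% of the negative controls equalled or passed and that was 1.17 without the first uninjected array. Btbd35f18, one of a family of BTB domain genes, was at 8.27 and 10.50 against 9.64 to 12.43 with a median of 11.63, a difference of 1.95 (11.6% of negative controls) that became -0.44 with the hybridization controls as a covariate. In all 3 the first uninjected array was the lowest of the 10.
Pold2, an accessory subunit of the replicative DNA polymerase delta, had the highest mean of any gene, 12.27. It was at 13.30 and 9.80 in the uninjected lungs and at 11.21 to 13.41 with a median of 12.70 in injected lungs, so that one uninjected array stood near the top of the injected range and the other below it. Its difference of 0.89 became -0.28 after quantile normalization and -0.86 without the second uninjected array. Hmgb1 and Cbx3, abundant chromatin proteins, differed by 0.68 and 1.17, which 58.3% and 34.3% of the negative controls equalled or passed. Tchp, a keratin-binding protein of centrosomes, and Krtap6-5, a hair keratin-associated protein, differed by 1.36 and 0.61. Without the first uninjected array the differences of Hmgb1, Cbx3 and Tchp became -0.05, 0.14 and -0.14, and with the hybridization controls as a covariate those of Tchp and Krtap6-5 became -0.12 and -1.26. Just under the threshold lay Doc2a (mean 10.81, difference 1.11), Rmc1 (10.73, 0.56) and Ptma (10.59, 2.22). Probe sets of families with near-identical copies, among them Gm20854, Btbd35f18 and Krtap6-5, may read several copies.

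The pigment cell genes, the direct readout of B16F10 cells in a lung, did not pass the test. Of 25 measured members of the melanocyte and melanoma list, 15 were higher and 10 lower in injected lungs, with a median difference of 0.24 beside 0.06 and 53.1% higher over all genes tested. At an unadjusted p under 0.05 there were 2 higher and 1 lower members, beside 2.34% and 3.09% of all genes. Pmel was at 5.90 and 7.11 in uninjected lungs. In injected lungs it was at 9.19 and 9.68 with water, 6.89 and 8.42 with DTIC, 8.32 and 7.79 with SQ-diEG at 5 mg/kg, and 8.97 and 6.91 with SQ-diEG at 25 mg/kg. Of the 8 injected arrays, 6 lay above both uninjected arrays and 2, the first with DTIC and the second with SQ-diEG at 25 mg/kg, lay between them. The mean was 8.27 ± 1.02 (SD, n = 8) against 6.51 ± 0.86 (SD, n = 2), a difference of 1.76 (SE 0.76, limma adjusted p = 0.870), and 15.6% of the negative-control probe sets differed at least as far. The difference was 1.16 without the first uninjected array. All 10 values of Pmel were under the negative-control limit. Averaged over the 7 melanoma markers, the level by array was 7.18 to 7.38 in uninjected lungs and 6.88 to 8.16 in injected lungs, so the sides overlapped.

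The melanin synthesis enzymes gave differences in both directions. Tyr, the rate-limiting oxidase, was at 8.35 and 7.29 in uninjected lungs and at 5.23 to 8.72 with a median of 6.70 in injected lungs, a difference of -0.90 (SE 0.80, limma adjusted p = 0.940) that ran from -1.43 to -0.37 with single arrays left out. Tyrp1 was at 7.23 and 7.04 against 5.83 to 9.88 with a median of 7.30, a difference of 0.24. Dct was at 6.69 and 6.28 against 5.91 to 7.73 with a median of 7.14, a difference of 0.64. In all 3 the sides overlapped. Mlana, a melanosome protein used as a melanoma marker, was at 8.71 and 7.23 against 6.78 to 9.31 with a median of 7.99, and its difference of 0.26 became -0.48 without the second uninjected array. After Pmel, the smallest p-values of the list belonged to Cd63, Gpr143 and Rab38. Cd63, a tetraspanin of late endosomes and melanosomes found in most cells, differed by 1.71. Gpr143, the receptor altered in ocular albinism, differed by -1.62, and Rab38, which directs tyrosinase to melanosomes, by 1.22. The sides did not overlap for Gpr143, 1 of the 25 members, beside 4.8% of all genes tested. Cd63 was above the negative-control limit on 1 array and the other 3 on 0, and 17.0%, 19.2% and 32.3% of the negative controls differed at least as far.

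**Figure D3:**
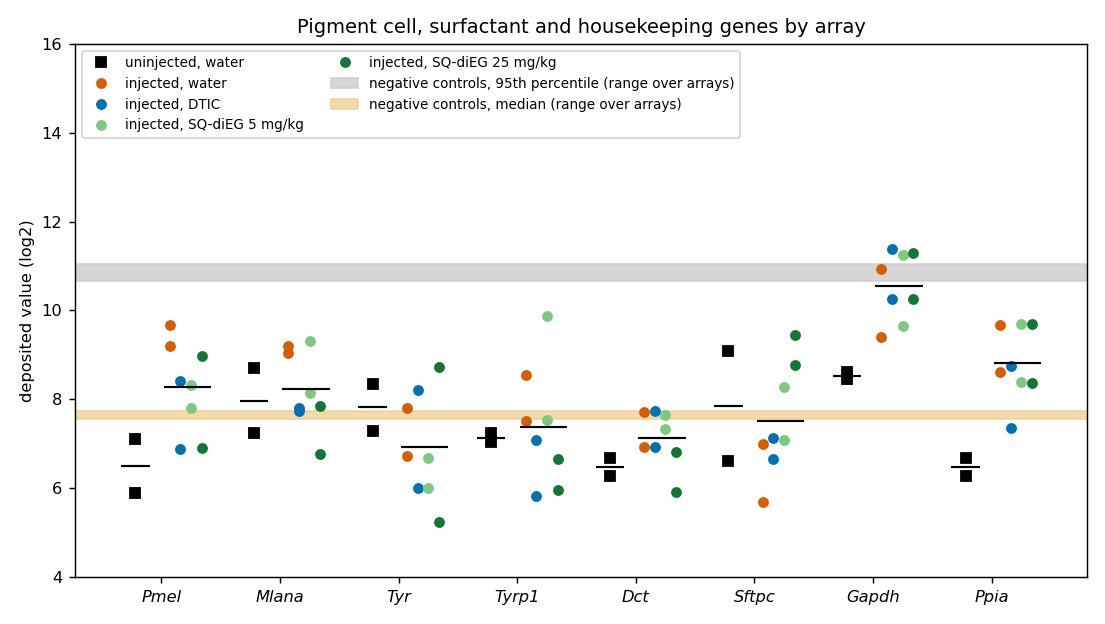
Deposited log2 values of the pigment cell genes Pmel, Mlana, Tyr, Tyrp1 and Dct, the surfactant gene Sftpc and the housekeeping genes Gapdh and Ppia on each array (black squares, 2 uninjected arrays; circles, 8 injected arrays coloured by treatment; short lines, means of each side). The grey band is the negative-control limit (95th percentile) and the tan band the negative controls' median over the 10 arrays; of these genes Gapdh reaches the grey band, on 4 injected arrays, and the others stay under it.

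Genes of the alveolar and airway epithelium showed no shared direction. Of 21 type II cell genes 10 were higher and 11 lower, with a median difference of -0.08. Sftpc, the surfactant protein that only type II cells make in quantity, was at 9.08 and 6.60 in uninjected lungs and at 5.68 to 9.44 with a median of 7.11 in injected lungs, a difference of -0.34 (SE 0.77, limma adjusted p = 0.982). It became 0.90 without the first uninjected array. The smallest p-values of this list were those of Etv5, a transcription factor of type II cells (-1.39), the mucin Muc1 (1.06), the lectin Sftpd (-0.84) and the chemokine Cxcl15 (-0.79). The type I list had 10 higher and 7 lower members of 17 and a median of 0.13, the airway list 9 higher and 8 lower of 17 and a median of 0.09. Cldn18, a tight junction claudin of the alveolus, was at 6.76 and 7.94 against 7.02 to 10.56 with a median of 9.16, a difference of 1.72 that 16.6% of the negative controls equalled or passed and that became -1.39 with the hybridization controls as a covariate. Cav1, the caveolin of type I and endothelial cells, was at 7.68 and 7.56 against 5.50 to 7.10 with a median of 6.74, so that the sides did not overlap, and differed by -1.06 (-0.51 with the hybridization controls as a covariate). In the airway list the smallest p was that of the secreted protein Bpifb1 (-1.25), and the club cell genes Cyp2f2 and Scgb3a2 differed by -0.93 and -0.82. With that covariate the directions of Etv5 and Cyp2f2 also turned, to 0.27 and 0.079, and without the second uninjected array that of Cxcl15 turned to 1.06. Every member of these 3 lists was under the negative-control limit on all arrays.

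Endothelial and stromal genes were likewise spread on both sides of 0. The endothelial list had 13 higher and 10 lower members of 23 and a median of 0.02. Pecam1, the junctional protein of endothelial cells, was at 6.31 and 6.24 against 6.52 to 8.98 with a median of 7.79, without overlap, and differed by 1.5 (SE 0.77, limma adjusted p = 0.904). Sox18, an endothelial transcription factor, went the other way at 9.26 and 7.97 against 6.00 to 8.27 with a median of 6.57, a difference of -1.89. Prox1, which sets lymphatic identity, and the tight junction gene Cldn5 differed by -1.61 and 1.47. Among 22 fibroblast and matrix genes 12 were higher and 10 lower, with a median of 0.11. The growth factor receptor Pdgfrb of pericytes and fibroblasts was at 5.85 and 6.52 against 6.78 to 9.61 with a median of 8.04, without overlap, a difference of 1.73. The matrix genes Col1a1, Ccn2 and Dcn differed by -1.34, -1.33 and -1.17. The directions of Pecam1, Pdgfrb and Dcn turned with the hybridization controls as a covariate, to -0.91, -0.035 and 0.15, and that of Ccn2 turned to 0.54 without the first and that of Prox1 to 0.24 without the second uninjected array. For the 3 genes given by array, 12.9% to 22.8% of the negative controls differed at least as far, and none of them was above the negative-control limit on any array.

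Among leukocyte genes the neutrophil list leaned highest, with 16 higher and 7 lower members of 23 and a median of 0.36, but no member passed. Its median was 0.05 without the first uninjected array and -0.07 with the hybridization controls as a covariate. The stefins Stfa2l1, Stfa1 and Stfa2, protease inhibitors of neutrophils encoded by near-identical genes, differed by 1.53, 1.48 and 1.39. Of these Stfa2l1 was at 5.59 and 6.57 against 6.58 to 9.36 with a median of 7.41. The differences of Stfa2l1 and Stfa1 were 0.29 and -0.075 with the hybridization controls as a covariate. Prtn3, the granule protease proteinase 3, differed by -1.48, with uninjected values of 8.97 and 8.78 above all injected values, which ran from 6.49 to 7.84.
Macrophage and monocyte genes stood at 12 higher and 9 lower of 21 with a median of 0.12. Marco, the scavenger receptor of alveolar macrophages, was at 9.10 and 9.30 against 6.13 to 9.63 with a median of 7.37, a difference of -1.63 (SE 0.78, limma adjusted p = 0.904) that was -0.61 with the hybridization controls as a covariate. The complement gene C1qb differed by -1.48, the chitinase-like Chil3 by 1.35 and the integrin Itgam by 1.32. Averaged over the 2 macrophage markers with a probe set, Adgre1 and Csf1r, the level by array was 5.96 to 6.23 in uninjected and 6.37 to 7.78 in injected lungs. Both genes were under the negative-control limit on every array, and the hybridization controls differed by 1.58 in the same direction. The marker averages of the other leukocytes overlapped between the sides. They were 6.95 to 7.02 against 6.83 to 8.84 for neutrophils and 6.82 to 8.27 against 7.42 to 9.27 for T cells. For NK cells they were 6.78 to 7.72 against 6.13 to 8.595, and for B cells 6.55 to 8.07 against 6.18 to 8.29.
T cell genes counted 11 higher and 6 lower of 17 with a median of 0.28, cytotoxic genes 11 and 9 of 20 with 0.04, and B and plasma cell genes 12 and 10 of 22 with 0.05. The co-receptors of the main T cell classes differed by 1.49 for Cd4 and by -1.30 for Cd8a, but by -1.66 and -2.09 with the hybridization controls as a covariate. Cd8a was at 8.22 and 8.49 against 5.76 to 8.17, without overlap. The T cell median ran from -0.30 to 0.75 when single arrays were left out. The interleukin 7 receptor gene Il7r and the CD3 chain Cd3d differed by 1.40 and 1.09. Of the B cell list, Bank1, Fcrla and Spib differed by 1.53, -1.45 and 0.96. Irf4, a transcription factor of plasma cells and activated lymphocytes, had the smallest p of that list. It was at 8.25 and 10.09 against 6.09 to 7.95 with a median of 7.34, a difference of -2.07 (SE 0.75, limma adjusted p = 0.777) that 9.63% of the negative controls equalled or passed and that was -1.16 without the second uninjected array. The granzyme Gzmk and the Fas ligand gene Fasl of cytotoxic cells differed by -1.28 and -0.93, the latter becoming 1.04 with the hybridization controls as a covariate. Slamf7 and Klrb1c of the same list differed by -1.22 and 1.10, so its named members went both ways. The 12 erythroid and platelet genes had 8 higher and 4 lower members and a median of 0.07. The haem synthesis gene Alas2 differed by 1.33, and Treml1, Ppbp and Itga2b by -1.09, -0.44 and 0.32.

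The list on antigen presentation by MHC class I had the lowest median, with 8 higher and 16 lower members of 24 and a median difference of -0.39. Averaged over the list, the level was 7.87 and 7.95 in uninjected lungs and 7.27 to 7.76 in injected lungs. The median difference was -0.16 with no filter on low values and -0.11 without the second uninjected array. Psmb9, a subunit of the immunoproteasome, was at 10.16 and 7.45 against 6.38 to 7.34 with a median of 7.15, a difference of -1.85 (SE 0.77, limma adjusted p = 0.851) that was -0.49 without the first and -3.20 without the second uninjected array. B2m, the light chain of class I molecules, was at 8.63 and 9.36 against 6.17 to 9.39 with a median of 7.64, a difference of -1.32, and the proteasome activator Psme2 differed by -1.22. The heavy chain gene H2-K1, whose probes may read other class I genes, went the other way at 7.21 and 7.06 against 7.24 to 10.25 with a median of 8.54, a difference of 1.39. With the hybridization controls as a covariate B2m differed by -2.70 and H2-K1 by 0.90. Differences as large as these were found for 13.9% to 32.3% of the negative controls.
Genes induced by interferon numbered 18 higher and 15 lower of 33, with a median of 0.13. The antiviral genes Oasl1 and Oas2 differed by -1.64 and -1.48 and Mx1 by 1.27, and with the hybridization controls as a covariate Oasl1 and Mx1 turned to 0.27 and -0.74. Cytokine and chemokine genes numbered 15 higher and 12 lower of 27, with a median of 0.04. Osm, the gene of oncostatin M, was at 6.42 and 6.15 against 6.30 to 9.76 with a median of 8.00, a difference of 1.71 (3.14 with the hybridization controls as a covariate), while the growth factor Csf1 and the neutrophil chemokine Cxcl5 differed by -1.44 and -1.46. The difference of Csf1 became 0.091 with the hybridization controls as a covariate and 0.0093 without the first uninjected array. The list on invasion and the metastatic niche had 14 higher and 16 lower members of 30 and a median of -0.08, with the cadherin Cdh2 at 1.35 and the calgranulin S100a9 at 1.29.

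Genes of cell division counted 23 higher and 11 lower members of 34, with a median of 0.24. Mki67, the proliferation marker, was at 8.11 and 8.29 in uninjected lungs and at 6.59 to 10.09 with a median of 7.74 in injected lungs, a difference of -0.00 (SE 0.77, limma adjusted p = 1.000). The 2 members at an unadjusted p under 0.05 were both lower, Ube2c, the ubiquitin-conjugating enzyme of the anaphase-promoting complex, at -1.79 and the spindle protein Hmmr at -1.48, beside 3.09% of all genes. Pcna, the sliding clamp of DNA replication, was at 6.89 and 6.30 against 6.89 to 9.21 with a median of 8.09, a difference of 1.5 (3.04 with the hybridization controls as a covariate). Cdkn1a, the cell cycle inhibitor p21, differed by 0.68, and by -1.32 with the hybridization controls as a covariate.

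Abundant housekeeping genes had the highest median of the lists, and no member passed. Of 27 hypoxia and glycolysis genes 17 were higher and 10 lower, with a median of 0.20, and of 22 housekeeping genes 18 were higher and 4 lower, with a median of 0.74 that was 0.47 without the first uninjected array. Averaged over the housekeeping list, the level was 7.26 to 7.43 in uninjected and 7.48 to 8.29 in injected lungs. Gapdh, a glycolytic enzyme on both lists, was at 8.47 and 8.60 against 9.39 to 11.38 with a median of 10.60, without overlap, and exceeded the negative-control limit on 4 injected arrays. Its difference was 2.02 (SE 0.76, limma adjusted p = 0.797), and 10.5% of the negative controls differed at least as far. The cyclophilin gene Ppia was at 6.28 and 6.68 against 7.35 to 9.70 with a median of 8.69, also without overlap, a difference of 2.34 (6.09% of negative controls). Npm1, a nucleolar chaperone, differed by 2.00. Among the 4 lower members of the housekeeping list, B2m, also on the MHC class I list, and Tuba1b differed by -1.32 each. Phosphofructokinase Pfkl was at 5.76 and 5.92 against 7.06 to 8.71, and the oxidase of protein folding Ero1a at 6.85 and 5.84 against 7.65 to 9.65, both without overlap, with differences of 2.05 and 2.21. The differences of Npm1 and Pfkl were 1.27 and 3.56 with the hybridization controls as a covariate. In the other direction the peptide hormone gene Adm, a hypoxia target, differed by -1.5. The median level of the housekeeping list, 7.62, was close to that of the cytokine and chemokine list, 7.605, and of the MHC class I list, 7.58. The hybridization controls differed by 1.58 in the direction of the housekeeping median, and their part in these differences was not tested.

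**Figure D4:**
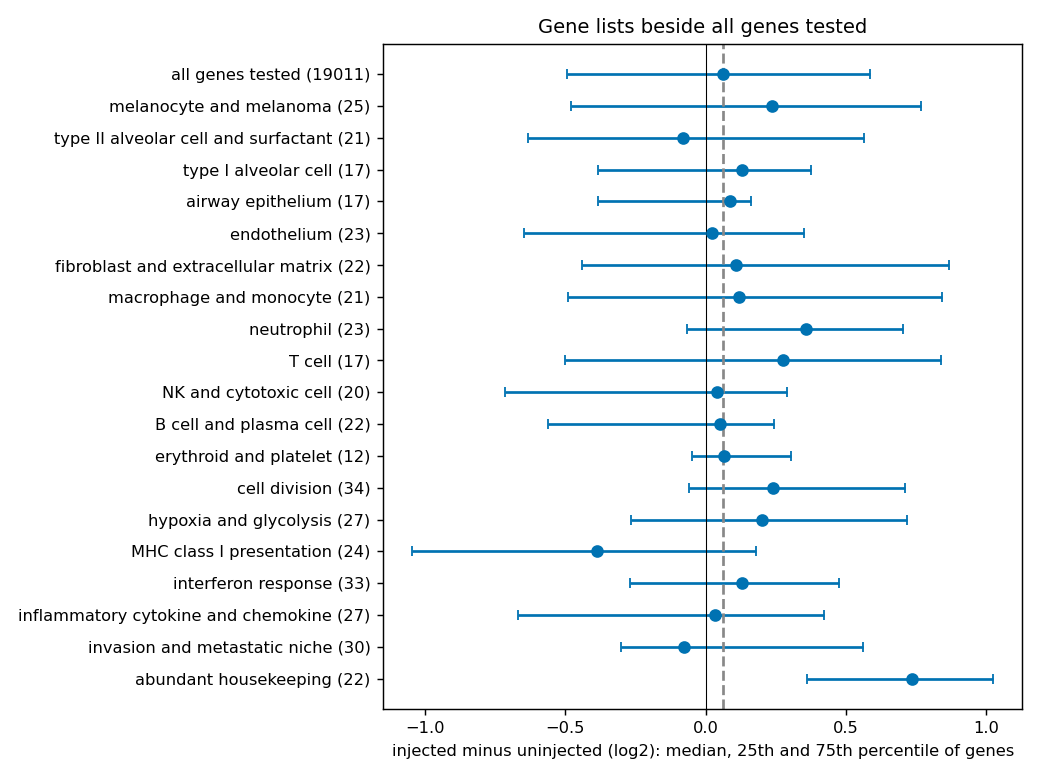
Median difference between injected and uninjected lungs (log2, points) with the 25th to 75th percentile of the genes (bars) for the 19 lists and for all 19011 genes tested, with the number of genes tested in brackets. The dashed line is the median of all genes, 0.06; the housekeeping median of 0.74 and the MHC class I median of -0.39 lie farthest from it on either side.

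In all, the 19 lists held 421 tested genes, of which 0 passed over all genes by limma and 20 had an unadjusted p under 0.05, 10 in each direction, beside 5.42% of all genes (2.34% higher and 3.09% lower). Only 6 were ever above the negative-control limit. The sign of the median was kept by 3 of the 19 lists (housekeeping, interferon response and MHC class I presentation) under every scaling, filter, model and left-out array tried.

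The genes with the smallest p-values have mixed known roles, and none passed. For the 10 higher and 10 lower genes the limma adjusted p ran from 0.538 to 0.613 and the log2 difference from 2.42 to 3.41 in size, and 0.977% to 5.32% of the negative-control probe sets differed at least as far. The sides did not overlap for 18 of the 20, which were ranked on this same difference, and all 20 differed from the uninjected arrays in one direction in each of the 4 injected groups. Of the 20, 11 were under the negative-control limit on every array.
Among the higher genes after Ipw were Tlk2, a kinase of chromatin assembly, Stac3, an adaptor of calcium channels in skeletal muscle, the vomeronasal receptor gene Vmn2r31 and the Y-linked spermatid gene Sly. Tlk2 was at 6.65 and 7.77 against 8.87 to 11.36 with a median of 10.02, a difference of 2.89 (SE 0.77). Stac3 was at 6.63 and 8.20 against 8.24 to 11.29 with a median of 10.46, a difference of 2.81 (SE 0.77). Each exceeded the negative-control limit on 3 injected arrays and no uninjected one. Vmn2r31 differed by 2.84 and Sly by 2.77, both from multicopy families, and Sly overlapped between the sides. The others were the coactivator gene Sub1 (2.66), the centromere chaperone gene Hjurp (2.65), the growth factor binding protein gene Igfbp4 (2.67), the olfactory receptor gene Olfr298 (2.55) and the histone methyltransferase gene Ezh1 (2.42). The low uninjected values of Sub1, 5.66 and 5.71, and of Hjurp, 5.60 and 5.99, lay below the mean of the background probe sets, which ran from 7.17 to 7.29. In all, the uninjected means of 6 of the 10 higher genes lay below that range. The differences of Hjurp, Igfbp4, Olfr298 and Stac3 were 0.91, 1.18, 1.42 and 1.71 with the hybridization controls as a covariate, and that of Sub1 was 4.69. Without the first uninjected array Vmn2r31 differed by 1.81 and Sly by 1.27.
Of all 19011 genes the smallest p belonged to a lower one, Mettl5, a methyltransferase of 18S ribosomal RNA. It was at 11.03 and 10.72 in uninjected lungs and at 6.59 to 8.88 with a median of 7.38 in injected lungs, a difference of -3.39 (SE 0.75, limma adjusted p = 0.538). It exceeded the negative-control limit on both uninjected arrays and on 0 injected ones, and 1.03% of the negative controls differed at least as far. The Notch pathway ligase Dtx1 was at 9.43 and 10.52 against 6.28 to 7.79, a difference of -3.13, and Tle6, a protein of the egg's subcortical maternal complex, at 9.77 and 12.06 against 6.81 to 9.25, a difference of -3.11. The secreted protease Htra1, the oxysterol-binding protein gene Osbp and the intestinal alkaline phosphatase gene Alpi followed at -3.10, -3.01 and -3.02. Then came the transcriptional repressor gene Nacc2 (-2.89), the olfactory receptor gene Olfr1377 (-2.98), the adaptor complex gene Ap4e1 (-2.85) and the membrane protein gene Lsmem1 (-2.76). The differences of Htra1 and Olfr1377 were -0.32 and -1.28 with the hybridization controls as a covariate, and that of Tle6 was -1.96 without the second uninjected array. The injected means of the 10 lower genes, 6.47 to 7.81, lay below the medians of the negative controls on the injected arrays, 7.57 to 7.74, except that of Tle6. The hybridization controls were higher by 1.58 on the injected side, and their part in the differences of these lower genes was not tested.

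**Figure D5:**
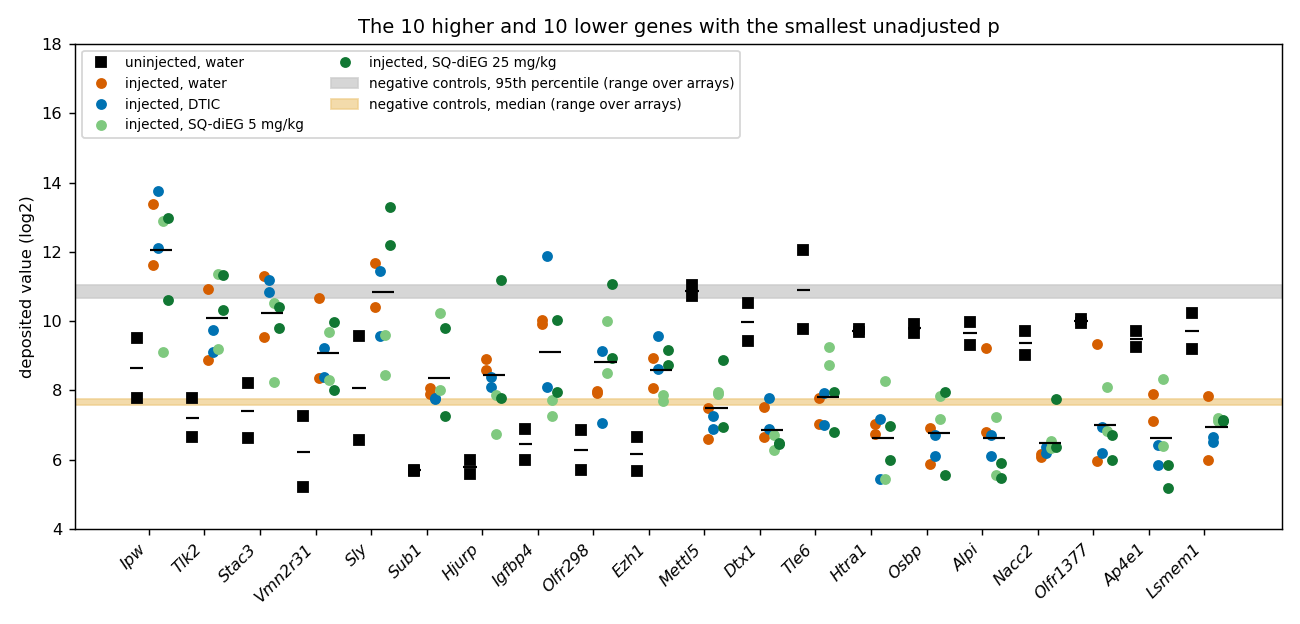
Deposited log2 values on each array of the 10 genes with a higher and the 10 with a lower mean in injected lungs that have the smallest unadjusted p (black squares, 2 uninjected arrays; circles, 8 injected arrays coloured by treatment; short lines, means of each side). The grey band marks the negative-control limit (95th percentile) and the tan band the negative controls' median; 11 of the 20 genes stay under the grey band on every array.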

How the data were processed

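Lung RNA of 10 arrays was measured on an Affymetrix mouse platform. The authors deposited log2 values, made with RMA in Affymetrix Expression Console and Transcriptome Analysis Console per the submitters' processing notes. The sources used here give no version, form of RMA or genome build. The labels name a 3' amplification kit, unlike the whole-transcript form of the probe set names, and 2 different RNA inputs. Symbols came from the platform annotation (19572 probe sets with 1 symbol, 0 with several, 2634 with none), and all 19505 gene IDs matched the NCBI gene table. For a gene with several probe sets the one with the highest mean was kept, and 494 genes above the 40th percentile on fewer than 2 arrays were left out. limma 3.58.1 (R 4.3.3) fitted the means of the 5 groups (5 residual and 51 prior degrees of freedom). The contrast was the mean of the 4 injected groups minus the uninjected group, adjusted over 19011 genes. Differences are on the log2 scale. Single values per array were tested by exact permutation over 45 arrangements. The number of arrays limits the precision. Tested on simulated data, the fit called 0%, 16%, 60% and 98% of genes changed by 1, 2, 3 and 4 on the log2 scale, 50 of each among 19011. The members and lists were chosen with earlier results of these data known. Named were the 10 higher and 10 lower genes of smallest p, 8 fixed genes, up to 4 genes a list by p and the genes above 10.85 in mean, without clone-type names. Alternatives covered scaling, filters, probe sets per gene, the model, array weights and left-out arrays. Some listed markers were not analysed here.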

Additional observations from a re-analysis of the deposited data

Results flagged for a closer look

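Among 115 values of named genes and array measures, 7 genes had 1 of the 8 injected arrays far from the other 7 (a gap over 0.526 of the range). Chance flags about 1 in 20 such groups. The array in question was the first with water for Alpi (9.21, the next 7.23), the second with water for Prox1 (8.59, the next 7.39), and the second with DTIC for both Ppbp (8.75, the next 6.81) and Mx1 (10.24, the next 8.23). It was the first with SQ-diEG at 5 mg/kg for Cd63 (11.20, the next 8.81). With SQ-diEG at 25 mg/kg it was the first array for Adm (9.51, the next 6.19) and the second for Nacc2 (7.75, the next 6.54). In each of these genes the far array was the highest of the injected ones. Probe sets with no gene listed, which enter no comparison of genes, exceeded the negative controls' 95th percentile in a mean of 4.29% of cases on the injected arrays, against 1.60% and 2.62% on the uninjected ones. The sides overlapped, with the lowest injected array at 2.54% (exact two-sided permutation test, p = 0.0889).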

How the results depend on the processing

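The count of genes at an adjusted p under 0.05 stayed at 0 for injected against uninjected lungs under every other setting, with limma adjusted p of at least 0.112, except that 2 of 10, Ipw and Gm20854, passed (smallest adjusted p = 0.00799) when only the genes with a mean above the negative controls' 95th percentile were tested. That set has fewer genes to adjust over, and both genes exceeded that percentile on 0 uninjected arrays and entered it through the injected side, so their calls there support no difference. Leaving out single arrays gave 0 throughout, and the count among the injected groups was 0 in every setting. The share of higher genes among those at an unadjusted p under 0.05 was 43.1%, and 35.1% with quantile normalization, 34.9% with centring on the negative controls, 54.1% with the hybridization controls as covariate, 29% without the first and 32.4% without the second uninjected array. With the replicate block there were 1055 genes at an unadjusted p under 0.05 and 0 at an adjusted p under 0.05. Over genes, same-numbered arrays correlated at -0.02 to 0.05 in their deviations. The mean of the hybridization controls, however, was higher on the second array than on the first in every group. Whether same-numbered arrays shared more than a number was not tested further. The difference of the hybridization controls was 1.40 with bioC alone (exact permutation p = 0.133) and 1.46 to 1.73 with single arrays left out, where fewer arrangements allow no p under 0.0556. The share of genes above the negative controls' 95th percentile was higher by 0.0468 percentage points in injected lungs (exact permutation p = 0.222) and -0.00128 with the 99th percentile. The slope of the hybridization controls as covariate rests on differences between the 2 arrays of a group. No uninjected array was as bright as an injected one, so differences with this covariate reach beyond the brightness that the sides share. They are not values corrected for brightness. With the hybridization controls as covariate the sign turned for Mki67 (1.60), Cdkn1a (-1.32), Tchp (-0.12), Btbd35f18 (-0.44), Krtap6-5 (-1.26), Etv5 (0.27), Cldn18 (-1.39), Cyp2f2 (0.079), Pecam1 (-0.91), Pdgfrb (-0.035), Dcn (0.15), Stfa1 (-0.075), Cd4 (-1.66), Fasl (1.04), Itga2b (-1.80), Oasl1 (0.27), Ifi27 (0.91), Mx1 (-0.74) and Csf1 (0.091). With quantile normalization it turned for Pold2 (-0.28). Without the injected water arrays it turned for Mlana (-0.037), Mki67 (0.20) and Sftpc (0.051), and without those of SQ-diEG at 5 mg/kg for Tyrp1 (-0.21) and Mki67 (0.39). With single arrays left out the difference ran from -3.19 to 0.54 for Ccn2, -2.89 to 0.0093 for Csf1, -2.65 to 1.06 for Cxcl15, -0.053 to 1.42 for Hmgb1, -0.21 to 0.84 for Itga2b, -0.36 to 0.35 for Mki67, -0.48 to 1.00 for Mlana, -0.86 to 2.65 for Pold2, -3.47 to 0.24 for Prox1, -1.58 to 0.90 for Sftpc, -2.56 to 0.21 for Spock2, -0.14 to 2.85 for Tchp and -0.056 to 0.53 for Tyrp1. The cause of these changes was not tested. The class of genes and negative controls with a mean over 10 was added after seeing the data. Signal over the negative controls limits every statement on a single gene.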
